A study of Mus musculus with 2 samples.

Results

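The cyclins, the cyclin-dependent kinases (CDKs) and the anaphase-promoting complex (APC/C) were compared between the second polar body (PB2) and the zygote of the mouse 1-cell embryo. The genes were taken by their symbols and not by their values, though the list was chosen with earlier results of these data known. They were the cyclins, the numbered CDKs, the genes named Cdkn, Wee1, Wee2 and Pkmyt1, the Cdc25 phosphatases, the polo-like kinases, the Cks genes, the APC/C subunits with Cdc20 and Fzr1, securin (Pttg1) and separase (Espl1). The deposited table held 78 such genes among its 11262 genes. Of these, 76 had at least 1 TPM in PB2 or in the zygote and were compared, as were 10645 genes in all. Cdk6 and Cdk19 stayed under 1 TPM in both libraries. Ccna1, Ccnd2, Cdk3, Cdk18, Cdkn2a, Cdkn2b, Plk5 and Cdc20b were not found by symbol among the genes of the table, so they were not analysed here.

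PB2 is the small cell that the egg extrudes after fertilization, and the zygote is the large cell that keeps most of the cytoplasm. Both samples came from untreated C57BL/6 embryos (C57BL/6N in the methods of the study), which had been taken from the oviduct and kept in KSOM medium until late in the 1-cell stage. The zona pellucida was then dissolved in acid Tyrode's solution, the PB2s were detached by pipetting in trypsin, and polyadenylated RNA of the collected PB2s and of the collected zygotes was amplified as full-length cDNA. There was 1 PB2 library and 1 zygote library, so the spread between samples of a kind is not known, no test was run and every difference below describes these 2 libraries. TPM values, in which a gene's transcripts are counted as a proportion of its library after adjustment for gene length, show no amounts, so genes can be compared within a library, whereas a smaller amount of RNA in PB2 cannot be seen. In such pooled samples fewer cells and less RNA per cell cannot be told apart.

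Cell division is driven by Cdk1 bound to a B-type or A-type cyclin. The kinases Wee1, Wee2 and Myt1 (Pkmyt1) hold Cdk1 inactive by phosphorylation, and Cdc25 phosphatases release it. The APC/C, a ubiquitin ligase that works with the coactivator Cdc20 or Cdh1 (Fzr1), then marks cyclin B and securin for destruction, which frees separase to open the cohesin rings that hold chromatids together. In the mouse egg the same machinery keeps the arrest at metaphase until fertilization and then runs the division that gives rise to PB2. The egg makes little RNA during these steps, and its stored mRNAs are translated, deadenylated and removed on a schedule until the embryo's own transcription takes over.

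The depth behind the values is unknown, since TPM keep no read numbers, and values were deposited to 1 decimal. The table summed to 89.8% of a full library in PB2 and 92.7% in the zygote. The whole table was shifted toward PB2, with a median log2 ratio of 0.21, and a direction given below for a gene between 0 and 0.21 turns when ratios are centred on the median. All 12 listed oocyte transcripts were in the table, and the lowest of them had 5.9 TPM in PB2 against 6.8 TPM in the zygote. Of 22 cumulus and granulosa cell markers 6 were in the table, with summed levels of 89.5 TPM in PB2 against 88.0 TPM in the zygote, most of it Cyp19a1, and Cyp11a1 was listed at 0 in the zygote. Of 10 sperm markers 3 were in the table, with sums of 24.5 TPM and 25.9 TPM.

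The cell cycle genes formed a visible part of both RNA stocks. The 78 genes summed to 20526 TPM in PB2, 2.28% of the table, and to 23221 TPM in the zygote, 2.50%. Most of this was from Cks2, Pttg1 and Cks1b, which together made up 70.7% of the sum in PB2 and 79.1% in the zygote. The median of the 78 genes was 19.4 TPM in PB2 against 15.3 TPM in the zygote, above the medians of 11.1 TPM and 8.7 TPM over the table. At least 100 TPM was reached by 18 of the genes in PB2 and by 14 in the zygote, 26 and 31 genes lay under 10 TPM, and none was listed at 0 in either library.

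**Figure D1:**
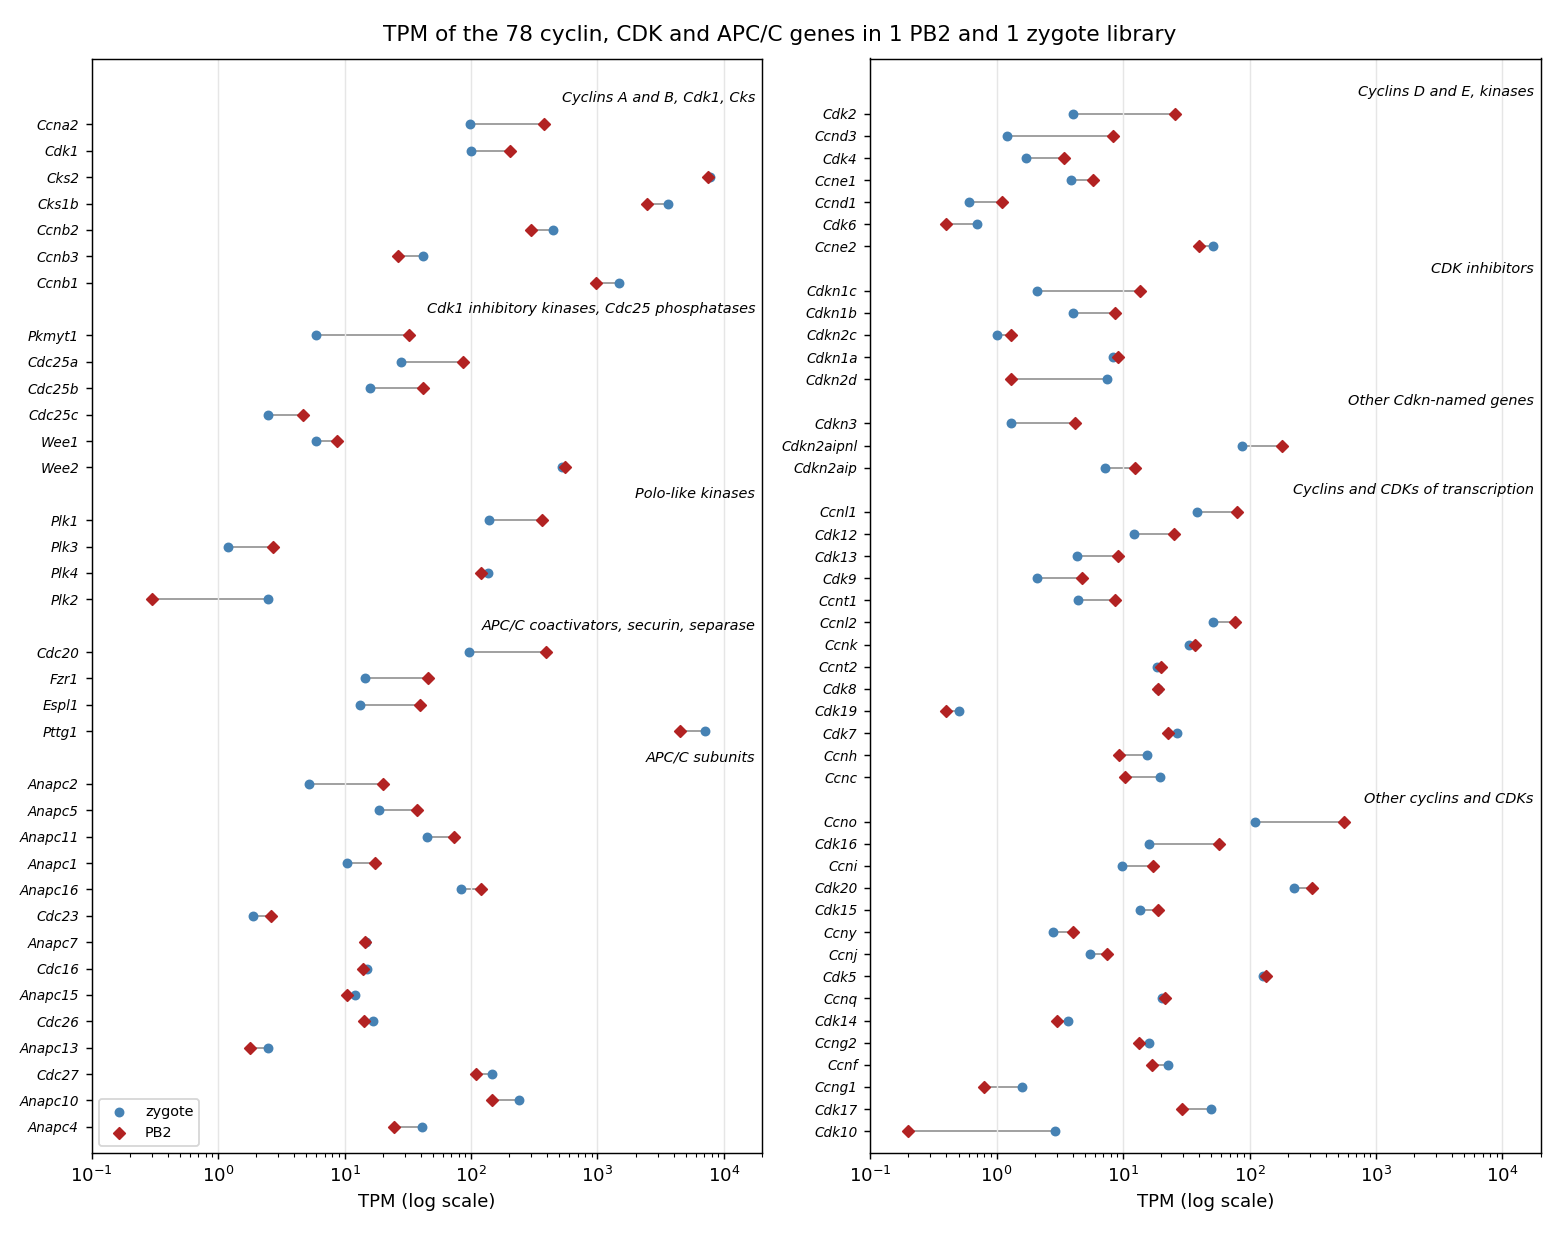
TPM of each of the 78 genes on a log axis in the PB2 library (red diamonds) and the zygote library (blue circles), ordered within each role by log2 ratio, with a grey line joining the 2 values. Each symbol is 1 library and there is no error bar. Cks2, Pttg1 and Cks1b lie farthest right in both libraries, and wide gaps are seen both for genes of low level, such as Cdk10 and Plk2, and for genes of high level, such as Ccno and Cdc20.

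Ratios were taken as log2((PB2 TPM + 1)/(zygote TPM + 1)). On this scale 18 of the 76 genes, or 23.7%, favoured PB2 by 2-fold or more, and 3 genes, or 3.95%, favoured the zygote to that degree. Over all genes compared the shares were 18.9% toward PB2 and 8.09% toward the zygote. The other 55 genes lay within 2-fold. The TPM was higher in PB2 for 48 genes and in the zygote for 27, with Cdk8 equal. These are 63.2% and 35.5%, beside 59.2% and 40.0% over all genes. The median log2 ratio was 0.39, and the values ran from -1.87 for Cdkn2d to 2.43 for Cdk2. The genes just inside the 2-fold line were Cdk1 at 1.02, Ccnl1 at 1.03 and Cdkn2aipnl at 1.05, and those just outside were Cdk12 at 0.99, Cdkn1b at 0.96 and Anapc5 at 0.96. With a line at 1.5-fold, 32 genes (42.1%) lay on the PB2 side and 11 (14.5%) on the zygote side, beside 34.3% and 18.2% of all genes. With a line at 4-fold, 6 genes (7.89%) lay on the PB2 side, namely Cdk2, Ccno, Pkmyt1, Cdkn1c, Ccnd3 and Cdc20, and 0 on the zygote side, beside 2.48% and 0.695%. The 0 depends on the 1 TPM added to each value, which shrinks the ratios of low genes. Without it the zygote-to-PB2 ratio of TPM was 14.5 for Cdk10, 8.33 for Plk2 and 5.69 for Cdkn2d. The same 6 genes were past 4-fold toward PB2 on that scale. After centring, 14 genes were past 2-fold toward PB2 and 4 toward the zygote, beside 13.0% and 12.1%.

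**Figure D2:**
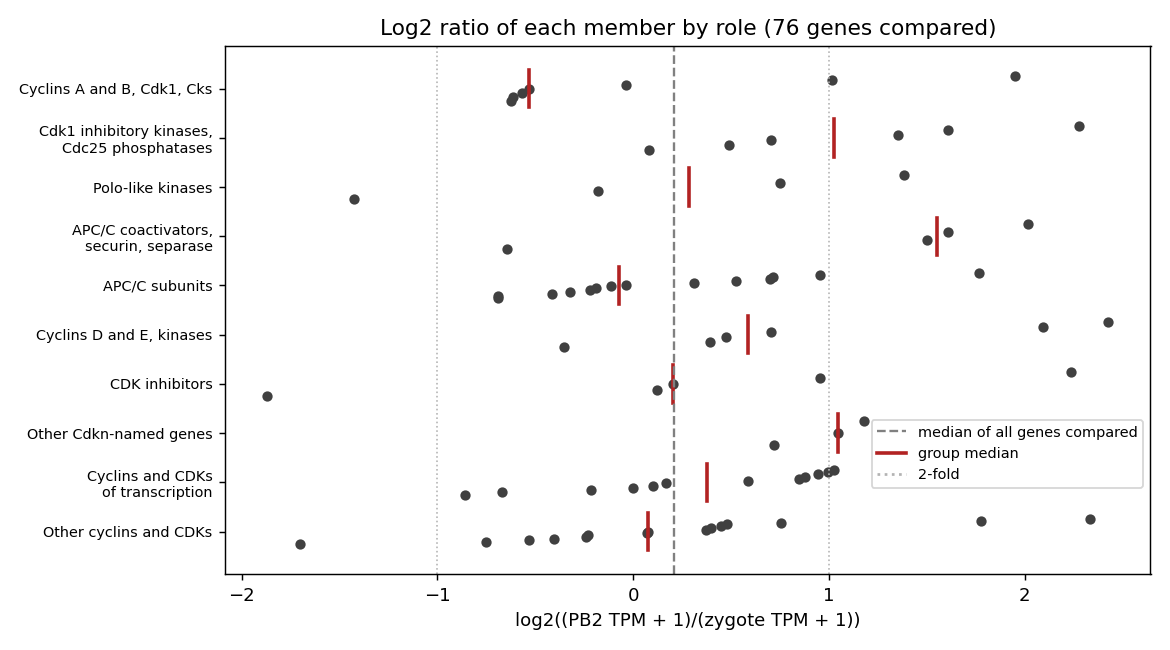
Log2 ratio of PB2 over zygote for the 76 compared genes, grouped by role. Each point is 1 gene, the red bar is the median of its group, the dashed line is the median of all genes compared (0.21) and dotted lines mark 2-fold. Group medians run from -0.53 for the A- and B-type cyclins with Cdk1 and Cks to 1.55 for the APC/C coactivators, securin and separase.

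The mitotic cyclins parted by type. All 3 B-type cyclins had the higher level in the zygote and cyclin A2 had 3.90 times its zygote level in PB2. Ccnb1, the main activating partner of Cdk1 in the egg, had 965.9 TPM in PB2 against 1490.0 TPM in the zygote, a log2 ratio of -0.62. Ccnb2, which can stand in for cyclin B1 in oocytes, had 298.3 TPM and 442.6 TPM (-0.57). Ccnb3, a B-type cyclin of meiosis, had 26.7 TPM and 41.4 TPM (-0.61). The 3 ratios were close to one another and none reached 2-fold. Ccna2, the cyclin of S phase and of mitotic entry, had 379.9 TPM in PB2 against 97.4 TPM in the zygote (1.95). It is annotated at chr3:36564865-36572150 on the minus strand of the GRCm38 assembly, with 8 exons, and Ccnb1 at chr13:100778650-100786570, also on the minus strand. Cdk1 itself had 204.5 TPM in PB2 against 100.6 TPM in the zygote (1.02).

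The small Cks proteins, which dock CDK complexes onto phosphorylated substrates, were among the most abundant genes of the whole group. Cks2, which is needed for meiotic division in mouse germ cells, had 7510.5 TPM in PB2 against 7713.4 TPM in the zygote (-0.04) and ranked 15 and 14 among all genes. Cks1b had 2483.4 TPM and 3590.1 TPM (-0.53), with ranks 47 and 32. Over the 7 genes of this role the median was -0.53. In ratios within a library, chosen after the values were seen, Ccnb1 exceeded Ccna2 by 2.54 times in PB2 and by 15.3 times in the zygote. Ccnb1 exceeded Ccnb2 by 3.24 times and 3.37 times. The balance of the B-type cyclins was therefore alike in both libraries, whereas that of B-type to A-type cyclin was not. Ccnb1 has 4 near-identical copies in the annotation, among them Ccnb1-ps with 99.2% identity over 1287 bases, and Cks2 has 3. How the counting divided reads among copies is not stated. Ccna2 shares 12.5% of its exonic bases with Exosc9 on the opposite strand, and Exosc9 went the other way, with 15.7 TPM in PB2 against 33.9 TPM in the zygote.

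Among the genes that switch Cdk1 off and on, all 6 had the higher TPM in PB2, beside 59.2% of all genes. Their median log2 ratio was 1.03, beside 0.21 over all genes. It was 0.68 after the trend on GC content described below was removed. The size differed widely, and Wee2 turned after centring (-0.13). Pkmyt1, the membrane-bound inhibitory kinase, had 32.4 TPM in PB2 against 5.9 TPM in the zygote (2.28). It shares 8.76% of its exonic bases with Paqr4 on the opposite strand, which had 37.0 TPM and 6.5 TPM, and whether strand was used in counting is not stated. Cdc25a, the phosphatase of S phase entry and mitosis, had 86.7 TPM and 27.8 TPM (1.61). Cdc25b, the phosphatase that starts meiotic maturation in mouse oocytes, had 42.1 TPM and 15.9 TPM (1.35). The genes past 2-fold thus included an inhibitor of Cdk1 as well as activators. Wee2, the oocyte form of the inhibitory kinase, which is required for the egg to leave metaphase, was by far the most abundant of the 6 and nearly level, with 553.3 TPM in PB2 against 523.3 TPM in the zygote (0.08). Wee1, the somatic form, had 8.7 TPM and 5.9 TPM (0.49), and Cdc25c had 4.7 TPM and 2.5 TPM (0.70). Wee2 exceeded Pkmyt1 by 17.1 times in PB2 and by 88.7 times in the zygote. Their transcripts differ in GC content, at 45.1% and 62.5%, and no adjustment was made for the trend described below.

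The polo-like kinases had no common direction. Plk1, which activates Cdc25 and the APC/C and builds the spindle, had 365.7 TPM in PB2 against 139.4 TPM in the zygote (1.39). Plk4, the kinase of centriole duplication and of spindle assembly without centrioles, had 121.1 TPM and 137.1 TPM (-0.18). The level of Plk1 was 3.02 times that of Plk4 in PB2 and 1.02 times in the zygote. This was not adjusted for the trend on GC content described below, and the GC content is 56.0% for Plk1 and 42.1% for Plk4. Plk2, a kinase of stress responses and of centrioles, was low in both, with 0.3 TPM in PB2 against 2.5 TPM in the zygote (-1.43). Rounding to 1 decimal allows a zygote-to-PB2 ratio from 7.0 to 10.2 for Plk2. Plk3 had 2.7 TPM and 1.2 TPM (0.75).

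The coactivators of the APC/C and separase had the higher level in PB2, and securin did not. Cdc20, the coactivator of metaphase exit, had 392 TPM in PB2 against 96.0 TPM in the zygote (2.02). It is annotated at chr4:118432901-118437352 on the minus strand of GRCm38, with 10 exons. Fzr1, which encodes the Cdh1 coactivator that keeps the oocyte in prophase and acts again after division, had 45.9 TPM and 14.4 TPM (1.61). Espl1, the protease separase, had 39.5 TPM and 13.3 TPM (1.5). Pttg1, the securin that holds separase inactive, was the reverse, with 4516.6 TPM in PB2 against 7053.7 TPM in the zygote (-0.64). Securin was the second most abundant gene of the group, with ranks 22 and 18 in the table. Its level was 114.3 times that of separase in PB2 and 530.4 times in the zygote. Against Cdc20 it was 11.5 times and 73.5 times. The transcript of Pttg1 has a GC content of 46.0%, beside 56.1% for Espl1 and 55.6% for Cdc20. These ratios were not adjusted for the trend on GC content described below. The 2 coactivators kept a similar balance, with Cdc20 at 8.54 times Fzr1 in PB2 and 6.67 times in the zygote.

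Of the 14 subunits of the complex itself, 13 were within 2-fold. PB2 had the higher TPM for 6 of them and the zygote for 8, beside 59.2% and 40.0% over all genes. Their median log2 ratio was -0.07, beside 0.21 over all genes, and so lay toward the zygote after centring (-0.28). This median was -0.14 without the trend on GC content described below and 0.045 without the length trend. Anapc2, the cullin of the catalytic core, was the only one at least 2-fold apart, with 20.1 TPM in PB2 against 5.2 TPM in the zygote (1.77). Its partner Anapc11, the RING subunit that binds the ubiquitin-conjugating enzyme, had 74.0 TPM and 44.8 TPM (0.71). The scaffold subunits Anapc1, Anapc4 and Anapc5 did not share a direction, at 0.70, -0.69 and 0.96. Among Cdc27, Cdc16, Anapc7 and Cdc23, which carry tetratricopeptide repeats, only Cdc23 had the higher TPM in PB2. Cdc27 had 110.1 TPM in PB2 against 147.2 TPM in the zygote (-0.42), and Cdc16 and Anapc7 stood at -0.11 and -0.04. Cdc23 was low, with 2.6 TPM and 1.9 TPM (0.31). It shares 13.4% of its exonic bases with Kif20a on the opposite strand, which had 36.2 TPM and 11.2 TPM. Anapc10, the subunit that helps to bind substrates, was the most abundant in both libraries, with 147.2 TPM and 237.9 TPM (-0.69). Anapc16 had 121.1 TPM and 83.9 TPM (0.52). Anapc13, Anapc15 and Cdc26, small subunits, stood between -0.32 and -0.19. The levels of the subunits were far apart, from 1.8 TPM for Anapc13 to 147.2 TPM for Anapc10 in PB2 and from 1.9 TPM for Cdc23 to 237.9 TPM for Anapc10 in the zygote.

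Among the cyclins and kinases of G1 and S phase, Cdk2 had the largest log2 ratio of all 76 genes. It had 25.9 TPM in PB2 against 4.0 TPM in the zygote (2.43), and among the 10645 genes 71 lay further toward PB2. Cdk2 partners with E-type and A-type cyclins and is needed for meiotic prophase in the mouse. It is annotated at chr10:128697939-128705031 on the minus strand of GRCm38. Ccnd3, a D-type cyclin, had 8.4 TPM and 1.2 TPM (2.10). Ccnd3 has a near-identical copy, Ccnd3-ps, and shares 4.11% of its exonic bases with Bysl on the opposite strand, which had 7.6 TPM in PB2 against 2.9 TPM in the zygote. The E-type cyclins were split, with Ccne1 at 5.8 TPM and 3.9 TPM (0.47) and Ccne2, the more abundant form, at 40.1 TPM and 51.6 TPM (-0.36). Cdk4 and Ccnd1, which act together in somatic cells, were low in both, with 3.4 TPM and 1.7 TPM for Cdk4 (0.70) and 1.1 TPM and 0.6 TPM for Ccnd1 (0.39).

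The CDK inhibitors held both the lowest ratio and one of the highest. Cdkn1c, which encodes p57 and is imprinted in the mouse, had 13.6 TPM in PB2 against 2.1 TPM in the zygote (2.24). Of its exonic bases 30.7% are shared with Gm44732 on the opposite strand. Cdkn2d, which encodes the Cdk4 and Cdk6 inhibitor p19Ink4d, had 1.3 TPM and 7.4 TPM (-1.87), a zygote-to-PB2 ratio of TPM between 5.44 and 5.96 after rounding. The inhibitor p27, Cdkn1b, had 8.7 TPM and 4.0 TPM (0.96), while p21, Cdkn1a, had 9.1 TPM and 8.3 TPM (0.12) and Cdkn2c had 1.3 TPM and 1.0 TPM (0.20). All 5 were under 15 TPM in both libraries. The median over the inhibitors was 0.20 and changed sign with the scale, to -0.01 after centring and -0.50 after the trend on GC content described below was removed. The rule by symbol also took 3 genes that are not inhibitors of this kind. Cdkn3, a phosphatase that acts on CDKs, had 4.2 TPM and 1.3 TPM (1.18). Cdkn2aipnl had 181.9 TPM and 87.6 TPM (1.05), and its relative Cdkn2aip had 12.5 TPM and 7.2 TPM (0.72).

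The cyclins and kinases of transcription were mostly within 2-fold, with a median log2 ratio of 0.38 over 12 genes. Ccnl1, a cyclin L of pre-mRNA splicing, had 78.9 TPM in PB2 against 38.2 TPM in the zygote (1.03). Cdk12 and Cdk13, kinases of the elongating RNA polymerase II, stood at 0.99 and 0.94. The elongation kinase Cdk9 and its partner Ccnt1 stood at 0.88 and 0.85, whereas the alternative partner Ccnt2 stood at 0.10. The CDK-activating kinase Cdk7 and its partner Ccnh stood at -0.21 and -0.67. For the Mediator module, Cdk8 had 18.8 TPM in both libraries and its cyclin, Ccnc, had 10.3 TPM in PB2 against 19.5 TPM in the zygote (-0.86). Cdk9 and Ccnt1 thus lay above the median of the table (0.21), and the Cdk7 and Mediator pairs lay under it. Ccnt2 was under it as well, and so was Ccnk at 0.17. Cdk9 was low, with 4.7 TPM in PB2 against 2.1 TPM in the zygote. With the trend on GC content described below removed, Cdk9 stood at 0.15 and Ccnt1 at 0.92. The Cdk7 and Mediator pairs then ran from -0.33 to -0.09.

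Of the remaining 15 cyclins and CDKs, Ccno stood out by level. It had 557.1 TPM in PB2 against 109.8 TPM in the zygote (2.33), which put it at rank 224 in PB2 and rank 1169 in the zygote. Ccno, best known from the formation of multiciliated cells, lies at chr13:112987802-112990777 on the plus strand of GRCm38. Its level was above those of Ccna2 and Cdk1 in both libraries. Cdk16, a kinase activated by cyclin Y, had 57.3 TPM and 16 TPM (1.78), while cyclin Y itself, Ccny, had 4.0 TPM and 2.8 TPM (0.40). Cdk20, a kinase of ciliary signalling and of cell growth, had 313.2 TPM and 224.8 TPM (0.48). Cdk5, known from neurons, had 135.1 TPM and 128.2 TPM (0.08). Cdk17 had 29.2 TPM and 49.9 TPM (-0.75). Cdk10 was at the other end, with 0.2 TPM in PB2 against 2.9 TPM in the zygote (-1.70), and its partner cyclin M, Ccnq, was level at 21.5 TPM and 20.4 TPM (0.07). Rounding leaves the zygote-to-PB2 ratio of Cdk10 anywhere from 11.4 to 19.7, and Cdk10 has a near-identical copy. Ccnf, an F-box cyclin that directs proteins to the SCF ubiquitin ligase, had 16.8 TPM and 22.6 TPM (-0.41).

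Stored mRNAs of the egg are often switched on by the cytoplasmic polyadenylation element, a U-rich motif near the end of the 3′ untranslated region (3′UTR) that lengthens the poly(A) tail. The libraries were made from polyadenylated RNA, so the motif was looked up in the genes described above, a choice made after their values were seen. The letters TTTTAT or TTTTAAT were searched on the transcript strand, in the last 100 bases of the annotated 3′UTR of the longest protein-coding transcript (GENCODE M21, GRCm38), and overlapping matches were counted. The 6 windows of 30 bases below are those of Cdk2 and Cdc20, which were higher in PB2, of Cdkn2d and Plk2, which were higher in the zygote, and of Cks2 and Cks1b, which were abundant and within 2-fold, with the motif in capitals, 5′ to 3′.
Cdk2 (chr10:128698014-128698043, minus strand): atttcTTTTATgattttcttctcccactcc
Cdc20 (chr4:118432923-118432952, minus strand): ttcctttcttgtTTTTATTTTATtttttct
Cdkn2d (chr9:21288425-21288454, minus strand): tttgtgtgattaTTTTATgttttggcccat
Plk2 (chr13:110400782-110400811, plus strand): gatgttctctttTTTTATgttgaccatttc
Cks2 (chr13:51650598-51650627, plus strand): tataaatgcctgTTTTATtttacctgtttt
Cks1b (chr3:89415518-89415547, minus strand): ggaaattttgcaTTTTATctgacagatctc

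The motif was present on both sides of the comparison. Of the 75 compared genes whose 3′UTR is at least 100 bases long, 16 had a match, or 21.3%, beside 20.1% (2033 of 10101) of all genes with such a window. Of the 16, 9 had the higher TPM in PB2 and 7 had it in the zygote, or 56.3% and 43.8%, beside 62.1% and 37.2% of all genes with a match. Differences past 2-fold were found for Cdk2 and Ccnl1 toward PB2 and for Cdkn2d and Plk2 toward the zygote, 12.5% each way, beside 18.9% and 6.35%. The median log2 ratio was 0.28 with a match and 0.39 without, and over all genes it was 0.25 and 0.23. The 3′UTR of Cdc20 is 62 bases long in this annotation, so it was not among the 75, and it holds 2 overlapping matches. A match is a description of letters and not evidence of a working element. Ccnb1 had no match. A gene without a match can still hold an element, since only these letters in the last 100 bases were searched.

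The log2 ratio also followed the base composition of the transcripts across the whole table. With all genes cut into 10 equal bins by GC content of the transcript, the median log2 ratio went from -0.36 in the lowest bin to 0.93 in the highest. Across the 76 cell cycle genes Spearman's rho of GC content with log2 ratio was 0.46, and across 10606 genes it was 0.44, given as a description since all genes share the same pair of libraries. The 18 genes past 2-fold toward PB2 had transcripts with a median GC content of 54.7%, beside 47.6% for the 55 genes within 2-fold and 49.1% for all genes. Of the 18, 14 were above the median of all genes, among them Pkmyt1 (62.5%), Fzr1 (59.9%), Cdkn1c (59.4%), Ccnd3 (58.4%), Ccno (57.9%), Espl1 (56.1%), Plk1 (56.0%), Cdc20 (55.6%), Anapc2 (55.2%), Cdc25b (54.2%), Cdk16 (53.2%), Cdc25a (51.7%), Cdkn2aipnl (49.7%) and Cdk2 (49.4%). The other 4 were Cdk1 (47.8%), Ccnl1 (47.4%), Ccna2 (46.1%) and Cdkn3 (46.1%). Of the 3 genes higher in the zygote, Cdk10 (56.5%) and Cdkn2d (55.8%) were GC-rich and Plk2 (48.0%) was not. Among the 10 most abundant cell cycle genes, the 7 within 2-fold ran from 44.2% to 49.5%, with Ccnb1 at 44.2%, Cks2 at 44.9%, Wee2 at 45.1%, Pttg1 at 46.0%, Cks1b at 49.2%, Ccnb2 at 49.3% and Cdk20 at 49.5%. Whether base composition has a part in the differences was not tested.

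**Figure D3:**
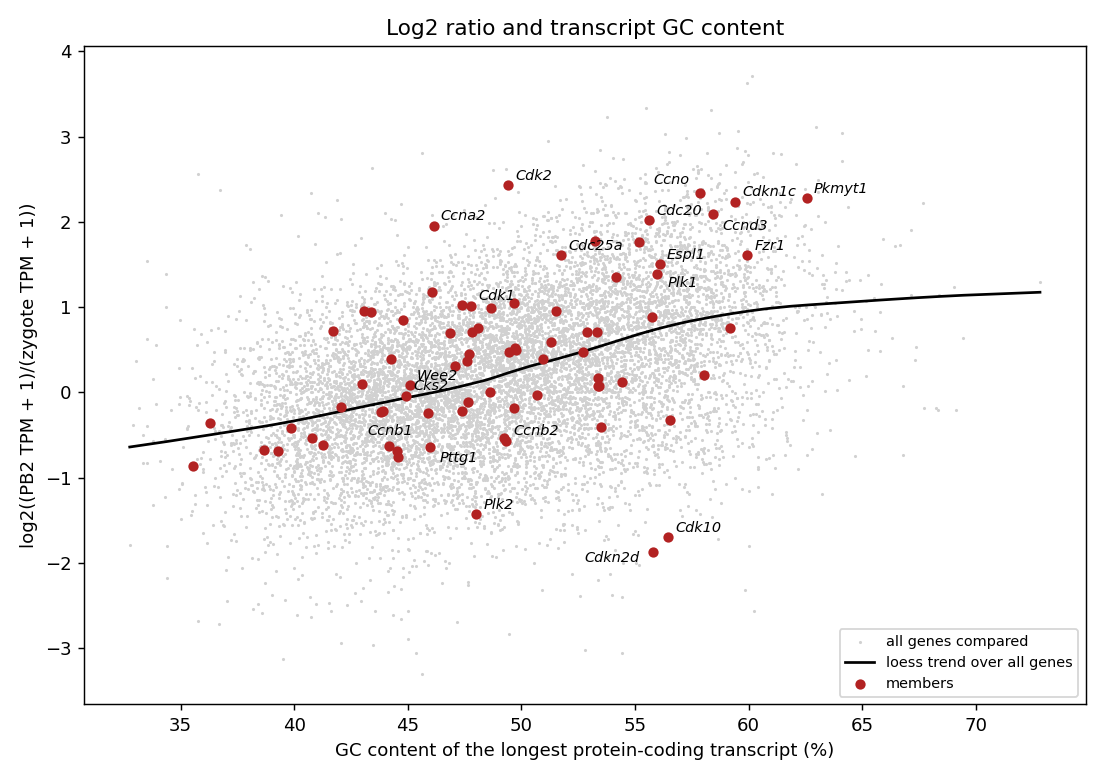
Log2 ratio of PB2 over zygote against GC content of the longest protein-coding transcript for all genes compared (grey) and for the 76 cell cycle genes (red), with the loess trend over all genes (black line). Each point is 1 gene. Pkmyt1, Fzr1 and Cdkn1c sit at high GC content where the trend is high, Ccna2 and Cdk2 sit far above the trend near the middle, and Cdkn2d, Cdk10 and Plk2 sit far below it.

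After the trend on GC content was subtracted, 13 cell cycle genes (17.1%) stood past 2-fold toward PB2 and 4 (5.26%) toward the zygote. Over all genes the shares were 9.08% and 11.0%. Of the 18 genes, 11 remained past 2-fold, and these were Cdk2 (2.20), Ccna2 (1.95), Ccno (1.47), Cdkn1c (1.31), Cdc20 (1.3), Cdk16 (1.26), Pkmyt1 (1.25), Ccnd3 (1.21), Cdc25a (1.20), Cdkn3 (1.18) and Anapc2 (1.08). The other 7 did not, with Ccnl1 at 0.95, Cdk1 at 0.92, Cdkn2aipnl at 0.80, Cdc25b and Espl1 at 0.75, Fzr1 at 0.66 and Plk1 at 0.64. Newly past 2-fold were Cdkn1b (1.12) and Cdk13 (1.09) toward PB2 and the APC/C subunit Anapc13 (-1.10) toward the zygote. Anapc13 was low, with 1.8 TPM in PB2 against 2.5 TPM in the zygote. Cdkn2d, Cdk10 and Plk2 lay further toward the zygote, at -2.60, -2.48 and -1.54. The B-type cyclins stayed on the zygote side, at -0.79 for Ccnb2, -0.52 for Ccnb1 and -0.35 for Ccnb3, as did Pttg1 at -0.63. Ccna2 and Cdk2 thus differed from the B-type cyclins and securin on both scales, while the coactivators split, with Cdc20 past 2-fold and Fzr1 within it.

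Partners and regulators outside the list of symbols were taken from a list of 55 genes, of which 48 were in the table and compared. Past 2-fold lay 9 of them toward PB2, or 18.8%, near the share over all genes, and 2 toward the zygote, or 4.17%, and the median log2 ratio was 0.38. The E2f transcription factors, a family of activators and repressors that controls genes of S phase, held 4 of the 9. E2f1 had 88.5 TPM in PB2 against 14.7 TPM in the zygote (2.51), E2f4 had 273.3 TPM and 92.0 TPM (1.56), E2f2 had 20.6 TPM and 7.4 TPM (1.36), and E2f5 had 1366.4 TPM and 532.4 TPM (1.36). The fifth compared E2f gene, E2f6, was level at 1.6 TPM and 1.5 TPM (0.06). Foxm1, the activator of G2 and mitotic genes, had 20.9 TPM and 5.1 TPM (1.84). Mos, the kinase that keeps the egg in metaphase through the MAP kinase pathway, had 310.1 TPM and 62.7 TPM (2.29). The rest of the 9 were Hexim2 (1.29), Cdk2ap1 (1.08) and Skp2 (1.01). After removal of the GC trend E2f4 (0.81), E2f2 (0.58), Hexim2 (0.65) and Cdk2ap1 (0.28) were within 2-fold, so that 2 E2f genes were left past it. Newly past it were Rbl1 (1.17) and Fbxo43 (1.14) toward PB2 and Cdk2ap2 (-1.34) and Lin37 (-1.23) toward the zygote. In all, 7 of the 48 then lay toward PB2 and 4 toward the zygote, beside 9.08% and 11.0% of all genes.

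Among regulators of the APC/C, Fbxo43, the Emi2 protein that blocks the APC/C in the arrested egg, had 128.9 TPM in PB2 against 66.2 TPM in the zygote (0.95). Its relative Fbxo5, Emi1, had 370.2 TPM and 253.7 TPM (0.54). Of the conjugating enzymes of the APC/C, Ube2s had 271.6 TPM and 140.3 TPM (0.95) and Ube2c had 107.1 TPM and 121.3 TPM (-0.18). With the GC trend removed, Ube2s stood at 0.06, Ube2c at -0.89 and Fbxo5 at 0.60. On the zygote side Mastl, the Greatwall kinase that protects Cdk1 substrates from dephosphorylation, had 78 TPM in PB2 against 156.5 TPM in the zygote, just within 2-fold on the log2 scale. Its targets Arpp19 and Ensa stood at -0.49 and -0.72. With the GC trend removed, Mastl stood at -0.70, Arpp19 at -0.19 and Ensa at -0.79. Lin9, of the MuvB complex, had 2.5 TPM and 8.9 TPM (-1.5), and Cables1 was listed at 0 in PB2 and at 1.2 TPM in the zygote. Ccnb1ip1, a meiotic recombination gene, had 6.0 TPM and 4.3 TPM (0.40).

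**Figure D4:**
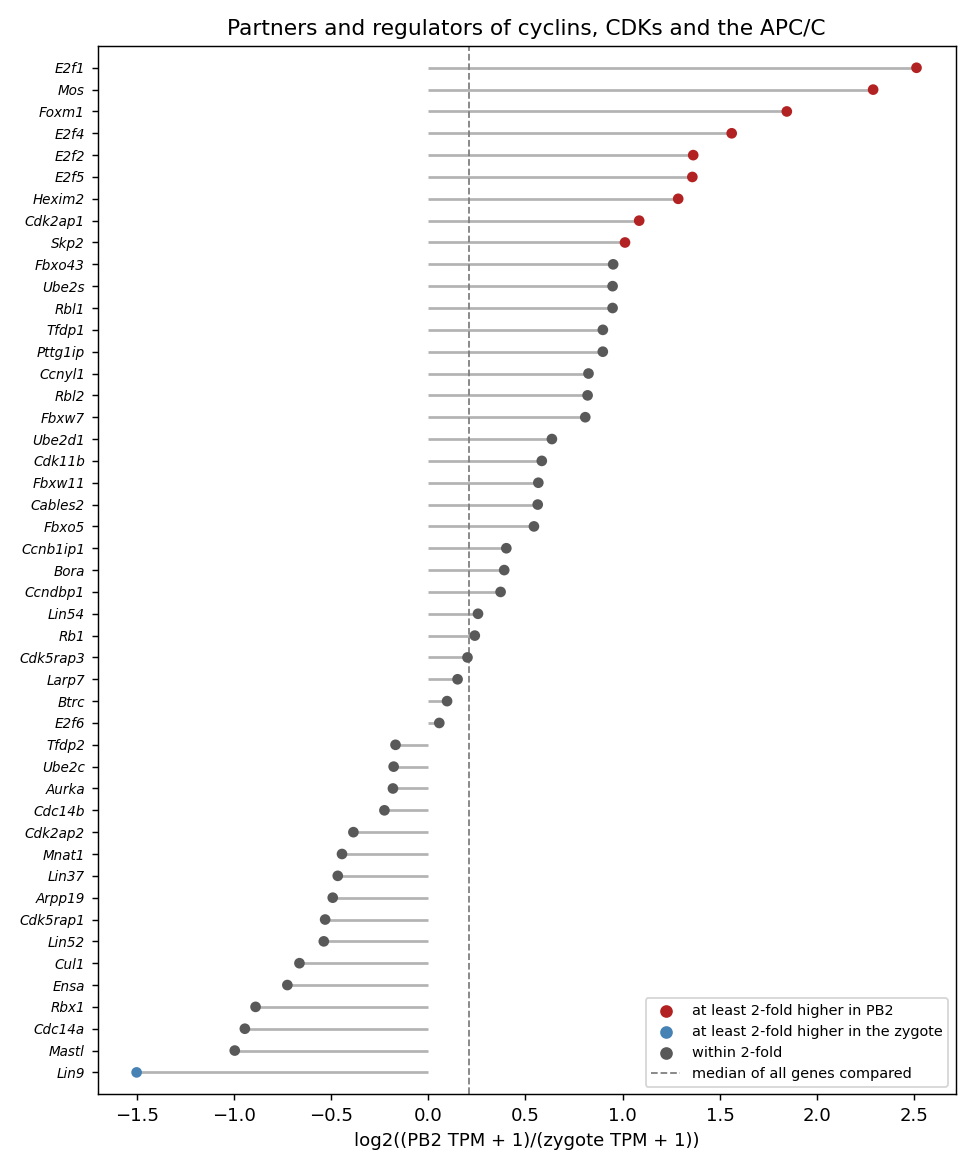
Log2 ratio of PB2 over zygote for 47 partners and regulators of the cyclins, CDKs and APC/C, sorted by ratio. Each point is 1 gene in 1 library of each kind, colours mark 2-fold, the dashed line is the median of all genes compared (0.21), and Cables1 is left out because it was listed at 0 in PB2. E2f1 and Mos stand at the top with 2.51 and 2.29, and Lin9 at the bottom with -1.5.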

How the data were processed

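TPM values of 1 PB2 and 1 zygote library were analysed. According to the supplementary methods, the authors called bases with Casava, aligned reads with HISAT2 2.0.4, counted them per gene with HTSeq 0.6.1p1 on an Ensembl annotation and normalized with DESeq2 1.18.1. The reference is named as OryCun2.0, a rabbit assembly, while the submitters' processing notes also name GRCm38 and the identifiers are mouse. The authors deposited TPM rounded to 1 decimal. How TPM were computed, and whether strand was used in counting, is not given in the sources used here. Both value columns were matched to samples by name.

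Genes with at least 1 TPM in either library were compared on log2((PB2 TPM + 1)/(zygote TPM + 1)), and genes at least 2-fold apart were counted. With 1 library per group no test was run. Every gene of the list could be named, with full values for those at least 2-fold apart, the 10 most abundant and 10 chosen by role. The genes, roles and lists were chosen with earlier results of these data known. A further partner gene was left out of the list and is not reported here. GC content, length, 3′UTRs, overlaps and copies (at least 95% identity over 200 bases, BLAST 2.17.0) came from GENCODE M21 (GRCm38), which matched 11221 of the 11262 genes and all 78. Loess (span 0.3) gave the trends on GC content and length. Alternatives were pseudocounts of 0.1 and 0.01, no filter or 5 TPM, scaling of the zygote values, TPM rescaled without mitochondrial genes and the 50 most abundant genes, centring, removal of the GC or length trend, and 1.5-fold and 4-fold. Functions were tested on simulated data. Python 3.11.15, numpy 2.4.6, pandas 2.3.3, statsmodels 0.14.6 and matplotlib 3.10.9 were used.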

Additional observations from a re-analysis of the deposited data

How the results depend on the processing

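No paired analysis was possible because PB2 and the zygote have 1 library each, and no replicate could be left out. Of 397 values recomputed, 344 stayed within the limits set here (0.5 on the log2 scale for a gene, 0.25 for a median, 1.5 times for a count), and 53 moved. Many of the 344 could not have moved. A filter leaves the ratio of a single gene as it was. Centring shifts every gene by the same 0.21, and scaling of the zygote values by a factor of 1.06 also stays under the limit for a gene. The tally is therefore no measure of how stable the values are. No gene past 2-fold changed sign, but pseudocounts, filters, centring and scaling cannot turn such a gene. Medians near 0 did change sign. These were the inhibitors and polo-like kinases without the GC or length trend, the inhibitors also after centring, the other cyclins and CDKs with scaled zygote values (-0.0044), after centring (-0.13) and without the GC trend (-0.11), and the APC/C subunits without the length trend (0.045). For single genes 22 values moved, 13 of them under removal of the GC trend, out of 28 genes, and 9 under smaller pseudocounts. The 18 genes higher in PB2 became 23 with pseudocounts of 0.1 or 0.01 (30.3%, beside 24.7% of all genes), 17 with a 5 TPM filter (27.4%, beside 20.7%), 15 with scaled zygote values (19.7%, beside 16.7%) and 14 after centring or removal of the length trend (18.4%, beside 13.0% and 12.1%). At 1.5-fold the counts were 32 toward PB2 and 11 toward the zygote, and at 4-fold 6 and 0. Without the added 1 TPM, Cdk10, Plk2 and Cdkn2d were past 4-fold toward the zygote. The 3 genes higher in the zygote became 1 with a 5 TPM filter (1.61%, beside 8.39% of all genes) and 7 after the length trend was removed (9.21%, beside 11.7%). The median of the D- and E-type cyclins and kinases was 0.87 and 0.93 with pseudocounts of 0.1 and 0.01. With a 5 TPM filter, which leaves fewer genes, medians were 1.28 for these, 0.37 for the other cyclins and CDKs, 1.35 for the Cdk1 switch, 0.54 for the inhibitors and 0.60 for the polo-like kinases. Without the GC trend they were 0.16, 0.68, -0.50 and -0.063 for the D and E cyclins, the switch, the inhibitors and the polo-like kinases, and 0.70 for the coactivators, securin and separase. Without the length trend they were 0.75, -0.080, -0.028 and 1.22 for the switch, inhibitors, polo-like kinases and coactivators, -0.16 for the A and B cyclins with Cdk1 and Cks, and 0.082 for the genes of transcription. The cause of these moves was not tested. Among the partners outside the list, the count of 2 toward the zygote was 4 with smaller pseudocounts, rescaling or removal of the GC trend, 1 with a 5 TPM filter, 5 after centring and 7 without the length trend.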
